A study of Mus musculus with 11 samples.

Results

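Rorb-positive excitatory neurons of the mouse cortex were examined in single-nucleus RNA-seq libraries of 11 mice. The nuclei were chosen by measured UMI counts (unique molecular identifiers, 1 per captured RNA molecule). A nucleus was taken when it held 300 to 8000 genes and at most 5% mitochondrial UMIs, at least 2 UMIs of Slc17a7, at most 1 of Gad1 and Gad2 together, at least 3 of Rorb, no more Cux2 than Rorb and less Hs3st4 than Rorb. These limits found 2982 nuclei, which are 14.6% of the 20466 excitatory nuclei and 2.65% of the 112539 nuclei within the limits, out of 114118 barcodes. Of the 5683 excitatory nuclei with at least 3 Rorb UMIs, 792 were set aside for Cux2 and 1909 for Hs3st4. The levels of Rorb, Slc17a7, Gad1, Gad2, Cux2 and Hs3st4 therefore follow from the selection and are not results.

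Rorb encodes RORβ, an orphan nuclear receptor that binds DNA and regulates transcription. In rodent cortex it marks excitatory neurons of layer 4, the main target of thalamic axons, together with neurons of layer 5, and in somatosensory cortex it takes part in arranging layer 4 cells into barrels. Intratelencephalic neurons send their axons to other cortical areas, while extratelencephalic and corticothalamic neurons of the deep layers project below the cortex. In human entorhinal cortex RORB labels excitatory neurons described as selectively vulnerable in Alzheimer's disease. Whether such neurons differ between mice with and without mutant tau is the question that the comparisons below address.

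Ikbkb+/+ mice (n = 4, aged 9.8 to 10.85 months) had no Cre recombinase and carried either the floxed Ikbkb allele or the floxed IkbkbCA allele, so that IKKβ, the kinase that activates NF-κB, was unaltered. Ikbkb+/+;P301S+ mice (n = 3, 9.15 to 10.75 months) were the same with, in addition, human tau bearing the P301S mutation, driven by the mouse prion promoter (the PS19 line). Ikbkb-/-;P301S+ mice (n = 2, 8.39 and 9.15 months) carried the tau transgene and Cx3cr1-CreERT2 with floxed Ikbkb. IkbkbCA;P301S+ mice (n = 2, 9.8 and 10.85 months) carried the tau transgene and Cx3cr1-CreERT2 with a Cre-dependent, constitutively active IKKβ. All mice, those without Cre included, had been given tamoxifen, and Cx3cr1 drives recombination in microglia, so that IKKβ was not altered in the neurons themselves. The floxed Ikbkb line gave 6 mice and the IkbkbCA line 5. Every Ikbkb-/-;P301S+ mouse came from the former and every IkbkbCA;P301S+ mouse from the latter. Breeding line was separated by the first principal component of the Rorb nuclei (25.3% of variance). The labels give all mice as female whereas the study's methods describe male mice for RNA-seq. Xist, the non-coding RNA of the inactive X chromosome, was read at 781 to 1458 CPM (counts per 1000000 UMIs) in the Rorb nuclei of every library.

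Each library held 7500 to 12315 barcodes and 72007219 to 93205362 UMIs. It gave 191 to 343 Rorb nuclei, with a median of 10203 to 14810 UMIs and 3236 to 4032 genes per nucleus, and their summed counts, on which genotypes were compared, came to 2081160 to 4844968 UMIs. Any pair of libraries shared 15 to 45 cell barcodes, and no pair shared a barcode of a Rorb nucleus (0). Free RNA can put UMIs into nuclei that do not express a gene. At least 3 Rorb UMIs were found in 2.10% of 18870 oligodendrocyte nuclei (medians of 1974 to 2998 UMIs per nucleus in a library) and in 27.8% of excitatory nuclei (medians of 10749 to 16288). At least 1 was found in 11.9 to 22.9% of the oligodendrocyte nuclei of a library. The depths differed, so that these shares do not give the background at the depth of excitatory nuclei. At the edge of the rule, 154 Rorb nuclei had exactly 3 Rorb UMIs, and 159 excitatory nuclei that met the other limits had 2. Their pooled levels were 126 CPM inside and 98.3 outside for Kcnh5, 320 and 300 for Zmat4 and 197 and 194 for Bcl11b.

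The identity of the nuclei was read first from markers of the cortical layers. CPM in this description are scaled to the total UMIs of the summed nuclei. The comparison is with the 17484 other excitatory nuclei of the same mice, and no test was made because the same nuclei were used for the selection. Of these nuclei, 9279 were led by Hs3st4 and 4561 by Cux2 (at least 3 UMIs and not below Rorb or the other gene). The differences below depend on this mix, and values against either part alone are not given. Of 8 layer 4 markers, 7 were higher in the Rorb nuclei in 11 of 11 libraries, with a median log2 ratio of 1.39 over the list and a summed level of 1300 to 2261 CPM against 667 to 907. Among all 14275 genes with a mean of 1 CPM or more, 986 were higher and 1222 lower in 11 of 11 libraries, with a median log2 ratio of -0.00.

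Rspo1, which encodes a secreted enhancer of Wnt signaling and is used as a layer 4 label, read 20.8, 30.2, 24.9 and 34.3 CPM in the Rorb nuclei of Ikbkb+/+ mice, 18.7, 29.3 and 33.1 in Ikbkb+/+;P301S+ mice, 16 and 45.8 in Ikbkb-/-;P301S+ mice and 17.8 and 36.3 in IkbkbCA;P301S+ mice. The other excitatory nuclei ranged from 3.13 to 12.1 CPM, below every one of these values. The groups overlapped, and the 2 mice of each Cre group differed more from each other than the groups did. Kcnh5, a voltage-gated potassium channel of the EAG family, averaged 488 ± 85.7 CPM (SD, n = 11) in the Rorb nuclei and 152 ± 14.5 in the other excitatory nuclei. Zmat4, a zinc finger gene, averaged 669 ± 101 against 266 ± 26.5 CPM, and Whrn, which encodes the scaffold protein whirlin, 56.5 ± 13.1 against 19.6 ± 4.82. Scnn1a, an epithelial sodium channel subunit widely used to target layer 4, was higher in all 11 libraries but rare, at 2.60 ± 0.876 CPM against 1.05 ± 0.466, and was seen in 1.46 to 5.05% of Rorb nuclei. Cux1, an upper-layer homeobox gene, stood at 534 ± 110 against 323 ± 39.3 CPM, and Endou was the 1 marker of the 8 that did not exceed the other nuclei in every library (10 of 11).

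Markers of layer 5 gave a mixed picture. Of 8 markers of layer 5 intratelencephalic neurons, Deptor, an inhibitor of mTOR, and Hsd11b1, a glucocorticoid-activating enzyme, were higher in 11 of 11 libraries, at 66.9 ± 15.2 against 52.4 ± 8.45 CPM and 7.98 ± 3.18 against 3.23 ± 1.46. Arhgap25 was lower in all 11 (12.9 against 40.4 CPM), and Etv1, a transcription factor of layer 5, was lower in 9 of 11 (33.9 against 41.7 CPM). None of the 8 markers of extratelencephalic neurons was higher in every library (0 of 8), and the transcription factors Bcl11b (CTIP2) and Fezf2, which specify subcerebral projection neurons, were lower in all 11, at 54.9 ± 30.8 against 162 ± 40.1 CPM and 5.34 ± 2.58 against 8.83 ± 1.63. For the nuclei summed together the label thus held for layer 4 markers and, for layer 5, for 2 intratelencephalic markers of the 16 layer 5 markers read. They are therefore called Rorb nuclei here.

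Markers of the remaining layers were mostly lower. Foxp2 and Syt6, markers of layer 6 corticothalamic neurons, read 21.5 ± 6.59 and 3.12 ± 1.47 CPM against 179 ± 30.6 and 41.7 ± 10.4, and all 6 markers of that list were lower in 11 of 11 libraries. Tshz2, a transcription factor of near-projecting neurons, read 50.9 ± 25.4 against 199 ± 79.3 CPM. In the layer 2 and 3 list 3 of 6 were lower in every library, led by Otof (8.98 against 27.5 CPM) and Ccbe1 (25.0 against 64.3 CPM). Claustrum and layer 6 intratelencephalic markers were lower for 4 of 6, among them Nr4a2 (9.21 against 29.8 CPM). Mef2c, a transcription factor of excitatory neurons, was higher in all 11 libraries, at 1333 against 898 CPM.

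**Figure D1:**
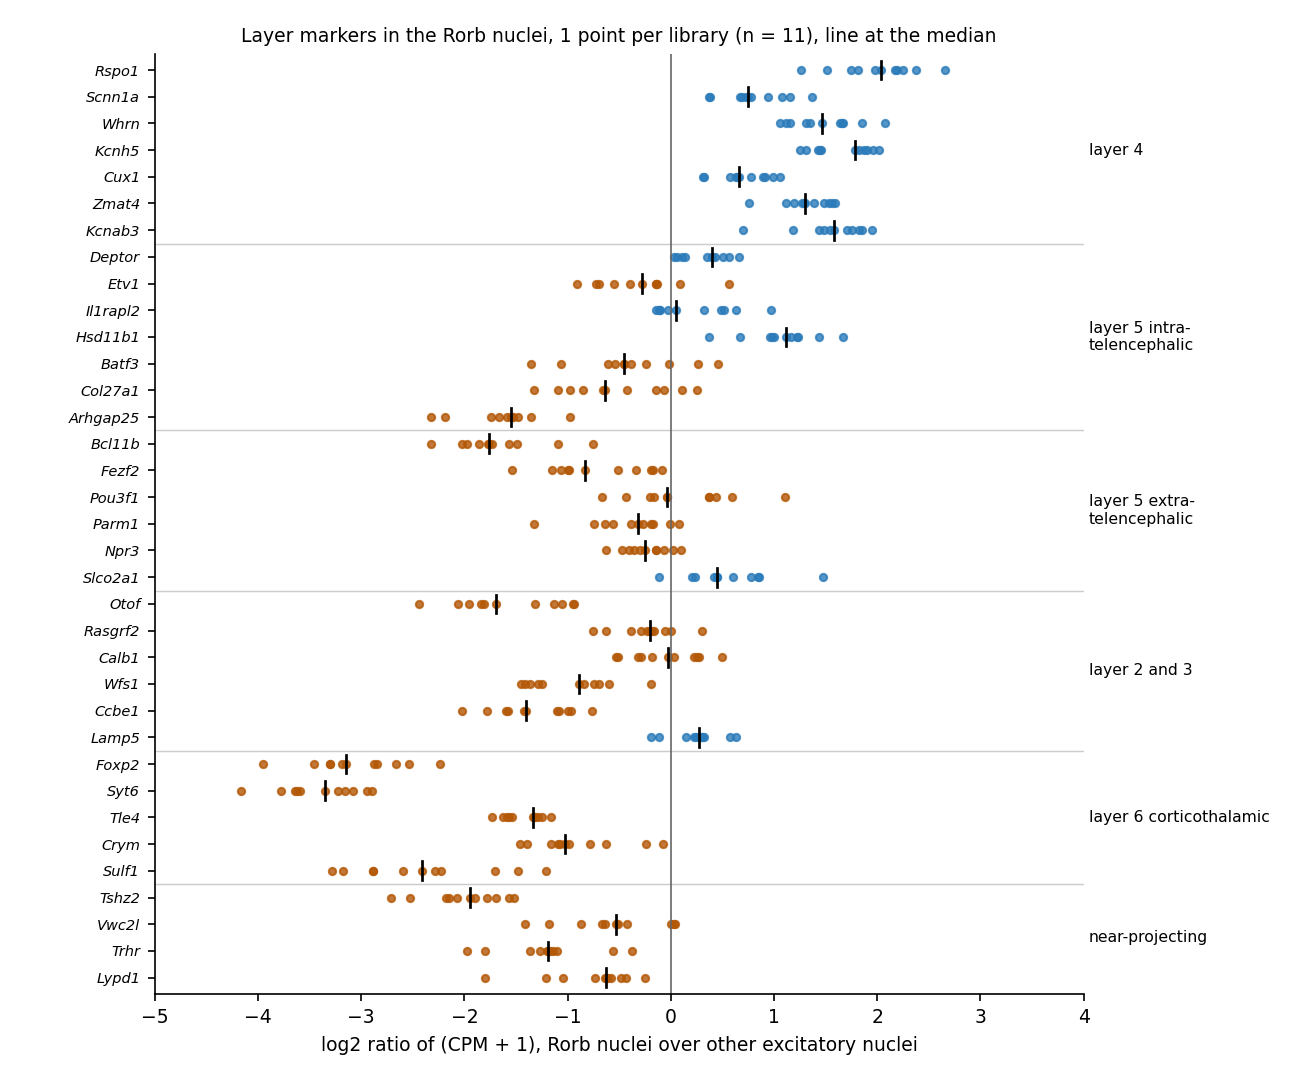
Layer markers in the Rorb nuclei relative to the other excitatory nuclei of the same library, as the log2 ratio of CPM + 1 on the horizontal axis, with 1 point per library (n = 11), a line at the median, blue where the median is above 0 and orange where it is not. Markers with under 2 CPM in both are left out, and the layer 4 markers shown lie to the right of 0 in every library while Foxp2 and Syt6 lie farthest to the left.

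Markers of other cell types were read in both classes of excitatory nuclei. Summed astrocyte markers came to 371 to 743 CPM in the Rorb nuclei against 277 to 361 in the other excitatory nuclei, 3 of 7 (Gja1, Gfap and the glutamate transporter Slc1a3) were higher in 11 of 11 libraries, and the defining marker Aqp4 stood at 3.65 against 1.08 CPM. Slc1a3 (48.4 ± 18.9 against 15.4 ± 4.11 CPM) and Plpp3 (32.2 ± 11.3 against 9.0 ± 2.37 CPM), both strongly expressed by astrocytes, were among the 12 genes with the largest ratio. Of 2982 nuclei, 502 held at least 3 UMIs of 24 defining markers of other cell types. Microglial markers summed to 26.9 to 79.0 against 29.1 to 59.0 CPM, oligodendrocyte markers to 138 to 287 against 144 to 311, and inhibitory, vascular and oligodendrocyte precursor lists had no member higher in every library (0 in each). The 6 striatal markers summed to 1184 to 2527 CPM against 1153 to 2194, nearly all of it Pde10a, which was higher in all 11 libraries (1694 ± 485 against 1469 ± 383 CPM), while Drd1 (1.84 against 4.83 CPM) and Rgs9 (13.8 against 28 CPM) were lower in all 11. No marker on these lists had 0 counts in the Rorb nuclei taken over all libraries (0), and the microglial marker Tmem119 averaged 0.33 CPM. The part of such RNA in the differences from the other excitatory nuclei was not tested.

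The genes that set the Rorb nuclei apart most, among those at 30 CPM or more, were partly unnamed transcripts. Gm20752 read 115, 93.1, 84.4 and 57.7 CPM in Ikbkb+/+ mice, 53.6, 103 and 125 in Ikbkb+/+;P301S+ mice, 47.8 and 99.7 in Ikbkb-/-;P301S+ mice and 72.4 and 116 in IkbkbCA;P301S+ mice. Every value exceeded the highest of the other excitatory nuclei, 28.3 CPM. Pld5, a phospholipase D family member without known enzymatic activity, averaged 267 ± 84.1 against 63.8 ± 17.8 CPM, Myo16, an unconventional myosin, 496 ± 81.3 against 172 ± 16.8, and Prr16 615 ± 107 against 217 ± 38.9. At the other end stood, besides the layer 6 genes, Rai14 (14.1 ± 4.49 against 80.6 ± 13.5 CPM), the repellent semaphorin Sema5b (14.2 ± 5.57 against 73.1 ± 22.5), Zfpm2 (103 ± 16.7 against 464 ± 68.9) and Nrp1, a receptor for class 3 semaphorins (39.8 ± 10.1 against 159 ± 17.1).

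Genes that shape connections and excitability were compared list by list, counting members whose log2 ratio passed 0.58 in either direction in all 11 libraries. Of 50 axon guidance and adhesion genes at 30 CPM or more, Unc5d, a netrin receptor, and Cdh12 were higher, at 1754 ± 313 against 950 ± 131 CPM and 1294 ± 178 against 679 ± 97.8. Cdh18 (523 ± 103 against 1157 ± 139 CPM), the ephrin receptor Epha3 (48.6 ± 11.4 against 134 ± 21.3) and Sema5a (15.1 ± 3.12 against 72.0 ± 14.3) were lower. Of 33 glutamate receptor and scaffold genes, the kainate receptor Grik4 was among those lower (91.1 ± 27.9 against 312 ± 56.4 CPM) and none was higher (0). Cacna2d3, an auxiliary calcium channel subunit, was higher at 1915 ± 180 against 1022 ± 106 CPM, as was Syt2, a fast calcium sensor of release (31.0 ± 11.1 against 10.7 ± 4.44), while the release regulator Cplx2 was lower (34.7 ± 6.89 against 79.8 ± 14.7). None of 14 GABA receptor genes, 32 potassium and HCN channel genes and 18 tau-related genes passed this limit (0 in each), the layer 4 markers Kcnh5 and Kcnab3, both potassium channel genes, not being on that list. Among all 4752 genes at 30 CPM 55 were higher and 55 lower.

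The nuclei were also described by how much Rorb they held, in bins of 472 with 3 to 5, 798 with 6 to 10 and 1712 with 11 or more Rorb UMIs. Rorb chose the nuclei, the limits on Cux2 and Hs3st4 scale with it, and nuclei with more UMIs can count more of it. The bins thus admit different nuclei by construction, and the levels below are a description with no test. From the lowest to the highest bin the mean level of Rspo1 went from 7.39 to 22.6 to 35 CPM, Whrn from 22.0 to 49.0 to 69.1, Kcnh5 from 182 to 362 to 615 and Cux1 from 260 to 411 to 654, each with the highest bin above the lowest in 11 of 11 libraries. In the opposite direction Bcl11b went from 148 to 67.0 to 25.7 CPM, Parm1 from 55.8 to 38.0 to 14.3 and Sema3e from 75.4 to 36.5 to 17.3, each lower in the highest bin in 11 of 11 libraries. Otof went from 21.3 to 12.1 to 4.79 CPM and was lower in 10 of 11. Foxp2 was nearly level at 23.9, 20.1 and 21.4 CPM, as was Deptor at 62.6, 71.3 and 67.1. Libraries of the other excitatory nuclei ranged from 3.13 to 12.1 CPM for Rspo1, 11.7 to 27.4 for Whrn and 110 to 254 for Bcl11b. The means of the lowest bin lay within these ranges. For Cux1 that bin lay below the range (284 to 403 CPM), and for Kcnh5 above it (126 to 176). Foxp2 was below its range (136 to 248 CPM) in every bin.

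**Figure D2:**
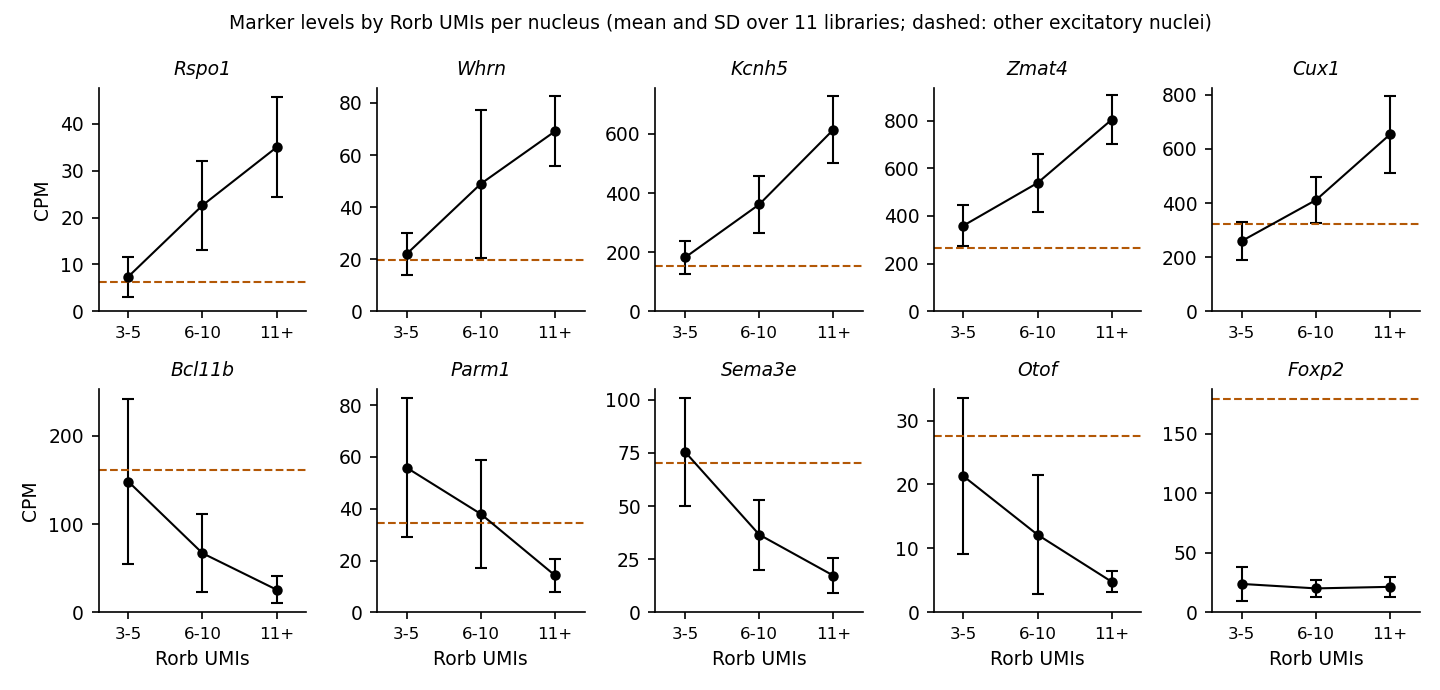
Levels of 10 layer markers (CPM, vertical axis, from 0) in Rorb nuclei with 3 to 5, 6 to 10 and 11 or more Rorb UMIs, as mean and SD over 11 libraries, with the dashed line at the mean of the other excitatory nuclei. Rspo1, Whrn, Kcnh5, Zmat4 and Cux1 are highest where Rorb is highest, Bcl11b, Parm1, Sema3e and Otof lowest, and Foxp2 lies near 20 CPM throughout, far under its dashed line.

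Rspo1, of the layer 4 list, was compared nucleus by nucleus with Il1rapl2 and Deptor of the layer 5 intratelencephalic list. Rspo1 was seen in 16.6 to 44.8% of the nuclei of a library and Il1rapl2, an interleukin-1 receptor family member, in 43.1 to 59.8%. Among nuclei with Rspo1, 21.7 to 43.2% held Il1rapl2, and among nuclei without Rspo1 48.7 to 66.8% did, with the first share below the second in each of the 11 libraries. For Deptor the shares were 15.6 to 42.0% and 29.3 to 50.7%, the first below the second in 10 of 11 libraries and above it in Ikbkb+/+ replicate 2 (33.8 and 29.6%). Nuclei with Rspo1 were the shallower in each library, at medians of 9605 to 13916 against 10503 to 15800 UMIs, and the part of depth in these differences was not tested. The library with most Rspo1, Ikbkb-/-;P301S+ replicate 2 (44.8% of nuclei), also had the highest median of Rorb UMIs (17) and of total UMIs (14810).

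The first genotype question was whether mice with mutant tau held fewer Rorb nuclei. Their share of excitatory nuclei was 18.1, 15.3, 14 and 12.1% in Ikbkb+/+ mice, 14.4, 14.7 and 14.2% in Ikbkb+/+;P301S+ mice, 13.4 and 16.3% in Ikbkb-/-;P301S+ mice and 15.1 and 12.7% in IkbkbCA;P301S+ mice. The Ikbkb+/+ mice spanned the values of all 7 P301S mice. The mean was 14.4 ± 1.17% (SD, n = 7) with the tau transgene and 14.9 ± 2.55% (n = 4) without, a difference of -0.476 percentage points with a two-sided exact permutation p of 0.688, where 0.0030 was the smallest that 330 splits allow. The differences were -0.453 points for Ikbkb+/+;P301S+ against Ikbkb+/+ (exact permutation p = 0.743, smallest possible 0.0286), 0.423 for Ikbkb-/-;P301S+ against Ikbkb+/+;P301S+ (p = 0.8, smallest possible 0.1) and -0.505 for IkbkbCA;P301S+ against Ikbkb+/+;P301S+ (p = 0.8, smallest possible 0.1). Adjusted over these 4 comparisons every p was 0.8, and the last 2 comparisons, which share the same 3 Ikbkb+/+;P301S+ mice, could not reach 0.05. The first difference turned to 0.604 points without Ikbkb+/+ replicate 1, and after each nucleus was thinned to 5000 UMIs the knockout difference turned to -2.17 points and the active IKKβ difference to 0.202. Thinning moved the difference of all P301S mice to -1.06 points (exact permutation p = 0.306), and a limit of 5 Rorb UMIs moved that of Ikbkb+/+;P301S+ mice to -0.994 (exact permutation p = 0.657). For these shares 44224 nuclei under that depth were left out, and the rule was applied again to the thinned counts, which gave 845 Rorb nuclei of 7005 excitatory ones. As a share of all nuclei within the limits, Rorb nuclei averaged 1.93 ± 0.370% in Ikbkb+/+;P301S+ mice (n = 3) and 3.03 ± 0.703% in Ikbkb+/+ mice (n = 4, exact permutation p = 0.0857, adjusted 0.2). They averaged 3.26 ± 1.14% in Ikbkb-/-;P301S+ mice (n = 2, 1.32 points above Ikbkb+/+;P301S+, exact permutation p = 0.1, the smallest possible, adjusted 0.2) and 2.76 ± 0.595% in IkbkbCA;P301S+ mice (n = 2, exact permutation p = 0.2, adjusted 0.267). Over all 7 P301S mice the difference from Ikbkb+/+ was -0.481 points (exact permutation p = 0.345). Excitatory nuclei as a whole made up 17.0 to 26.1% of the libraries of Ikbkb+/+ mice, 10.6 to 16% of those of Ikbkb+/+;P301S+ mice, 18.4 and 24.9% of those of Ikbkb-/-;P301S+ mice and 21.1 and 18.4% of those of IkbkbCA;P301S+ mice. Both classes rest on UMI minima, so that shares of all nuclei depend on depth. Excitatory nuclei had medians of 10749 to 11640.5 UMIs in Ikbkb+/+;P301S+ libraries and 11657 to 16287.5 in the others. The library with 26.1% was the one at 11657, and the part of depth in these shares was not tested.

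**Figure D3:**
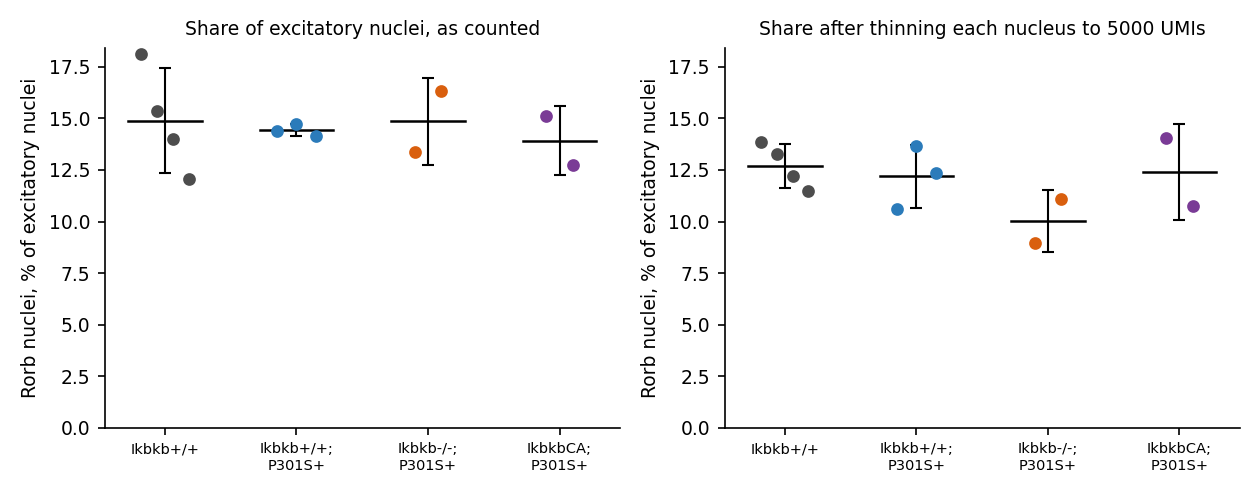
Rorb nuclei as a percentage of excitatory nuclei in each library (vertical axis, from 0), by genotype, as counted (left) and after thinning each nucleus to 5000 UMIs (right), with 1 point per mouse, a line at the group mean and bars of 1 SD. The groups overlap in both panels, and the Ikbkb+/+ mice span 12.1 to 18.1% as counted.

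Genes were then compared between genotypes on the counts summed per mouse, with edgeR's quasi-likelihood test over 12585 genes (biological coefficient of variation 13.2%). Calls needed both an adjusted p (Benjamini-Hochberg, over all genes tested) under 0.05 and a log2 change of more than 0.1 in size. CPM in these comparisons are scaled with edgeR's TMM factors unless stated, and errors of fold changes are standard errors. The 7 mice with the tau transgene differed from the 4 without it in 1 called gene, 0.00795% of those tested, and Ikbkb+/+;P301S+ mice alone differed from Ikbkb+/+ mice in the same 1 gene (0.00795%). Both of these comparisons use the same 4 Ikbkb+/+ mice. Deletion of Ikbkb in microglia called 0 genes (0.0%) and active IKKβ 1 gene (0.00795%), each against the same 3 Ikbkb+/+;P301S+ mice. At an unadjusted p under 0.05 these comparisons held 580 (4.61%), 418 (3.32%), 768 (6.1%) and 784 (6.23%) genes by edgeR and 288, 201, 425 and 489 by DESeq2. In counts simulated for these comparisons in turn, 98, 91, 84 and 82% of 100 genes of at least 10 CPM changed by 1 on the log2 scale were recovered, and 100% of 100 changed by 2. Of the unchanged genes 13, 8, 7 and 3 were called. The simulated counts held all these changed genes at once, which eases the adjustment over all genes, whereas the measured counts gave 0 or 1 call. In the simulation each gene's spread between mice was set from the trend over genes, with no difference between breeding lines. Among the genes below, Tshz2, at more than 10 CPM in every library, Junb and Npas4 changed by more than 1 in size and were not called. The simulated shares therefore do not give the recovery in the measured counts. A summed level falls alike when fewer nuclei hold a gene and when each holds less of it, and these were not compared between genotypes.

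The genes that check the labels came first. Ikbkb, which is deleted or activated in microglia only, was at 51.3 ± 6.68 CPM in the Rorb nuclei of Ikbkb+/+ mice, 52.4 ± 2.06 in Ikbkb+/+;P301S+ mice, 45.9 ± 3.26 in Ikbkb-/-;P301S+ mice and 52.1 ± 1.65 in IkbkbCA;P301S+ mice, and neither Cre group differed by the edgeR test (adjusted p = 0.857 and 0.996). Counts were taken over the whole gene with intronic reads, so that loss of a floxed part need not lower them. An unaltered level therefore does not show that IKKβ was intact in these nuclei. Mouse Mapt, the endogenous tau gene, read 491, 559, 573 and 554 CPM in Ikbkb+/+ mice and 552 to 653 in the 7 P301S mice, a difference of 0.17 ± 0.08 on the log2 scale that was not called (adjusted p = 0.964). Prnp, whose promoter drives the transgene, had 0 to 2 counts per library and was not tested. Over all nuclei within the limits Prnp had 7 to 10 counts in each Ikbkb+/+ library and 12 to 29 in each P301S library. The reason for such low counts was not tested. The human transgene has no entry of its own among the genes counted, so its expression in these nuclei was not read.

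The called gene, read with the transgene and not without it, was Gm43049, a long intergenic non-coding RNA (ENSMUSG00000105777) on chromosome 3 (140692038 to 140760704, minus strand, GRCm38). Its mean over all 11 libraries was under the minimum of 10 CPM set for named genes, and it was named after its values were seen. It had 0, 0, 0 and 0 counts in Ikbkb+/+ mice, 37, 27 and 27 in Ikbkb+/+;P301S+ mice, 24 and 33 in Ikbkb-/-;P301S+ mice and 60 and 36 in IkbkbCA;P301S+ mice. Not a single count was seen among 14857231 UMIs of the Ikbkb+/+ mice, and each of the 7 P301S libraries had at least 24. The mean of the P301S mice was 10.4 ± 3.05 CPM of total UMIs (SD, n = 7), at least 51.7-fold higher than the 0.202 that 3 counts over the Ikbkb+/+ group would give, and the edgeR test gave an adjusted p of 6.91e-05 (9.22e-05 for Ikbkb+/+;P301S+ alone). It was read in Ikbkb-/-;P301S+ mice at 5.92 and 6.81 CPM and in Ikbkb+/+;P301S+ mice at 11 to 13.0, without overlap, as for 11% of all tested genes in this direction, and not called (log2 fold change -0.93, adjusted p = 0.804). The RNA has 3 exons and 559 bases in the GENCODE M21 transcripts, and the exons are shown because this was the called gene. Exon 1 (chr3:140760606-140760704), exon 2 (chr3:140700036-140700080) and the first 200 bases of exon 3 (chr3:140692253-140692452) read, 5′ to 3′ on the minus strand, all in lower case as no part is marked:
Gm43049 exon 1: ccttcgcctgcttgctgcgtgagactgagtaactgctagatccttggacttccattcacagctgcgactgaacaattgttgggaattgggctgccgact
Gm43049 exon 2: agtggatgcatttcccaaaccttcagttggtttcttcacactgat
Gm43049 exon 3: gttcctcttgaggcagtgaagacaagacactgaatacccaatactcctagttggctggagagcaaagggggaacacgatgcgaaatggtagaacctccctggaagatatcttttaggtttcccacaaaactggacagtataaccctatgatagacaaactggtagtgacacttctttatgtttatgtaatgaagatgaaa

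The pattern was shared by the non-coding RNAs annotated next to it and by the other excitatory nuclei. Gm32754 (chromosome 3, 140904998 to 140917459, minus strand) had 0 counts in the Rorb nuclei of all 4 Ikbkb+/+ mice and 3 to 7 in each P301S mouse, 34 in all. 4930590L14Rik (chromosome 3, 140951876 to 140953247, plus strand) had 0 in all 4 Ikbkb+/+ mice and 1 to 10 in each P301S mouse, 48 in all. Both fell under the filter on low counts and were not tested here. In the other excitatory nuclei of the same mice the 3 genes had 1400, 148 and 227 counts with the transgene and 5, 1 and 1 without, and edgeR called all of them there. Alpk1, a kinase of innate immune sensing that lies farther along chromosome 3 (127670310 to 127780527), read 16.6, 13.3, 18.9 and 19.8 CPM in the Rorb nuclei of Ikbkb+/+ mice and 21.7 to 33.1 in the 7 P301S mice. The groups did not overlap, which 0.358% of all tested genes shared in this direction, yet the log2 fold change of 0.68 ± 0.13 was not called (adjusted p = 0.481). It was called in 1 of 21 alternatives, the fit without the filter on low counts. In the other excitatory nuclei Alpk1 was called at 1.29 (adjusted p = 0.000321), and the difference between the classes, -0.64, had a p of 0.00014 and an adjusted p of 0.711. Haus7, a spindle gene on the X chromosome, was likewise called in the other excitatory nuclei (1.36) but not in the Rorb nuclei, where it read 1.28 to 2.82 CPM without and 3.57 to 5.79 CPM with the transgene (log2 fold change 1.21 ± 0.28, adjusted p = 0.794).

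**Figure D4:**
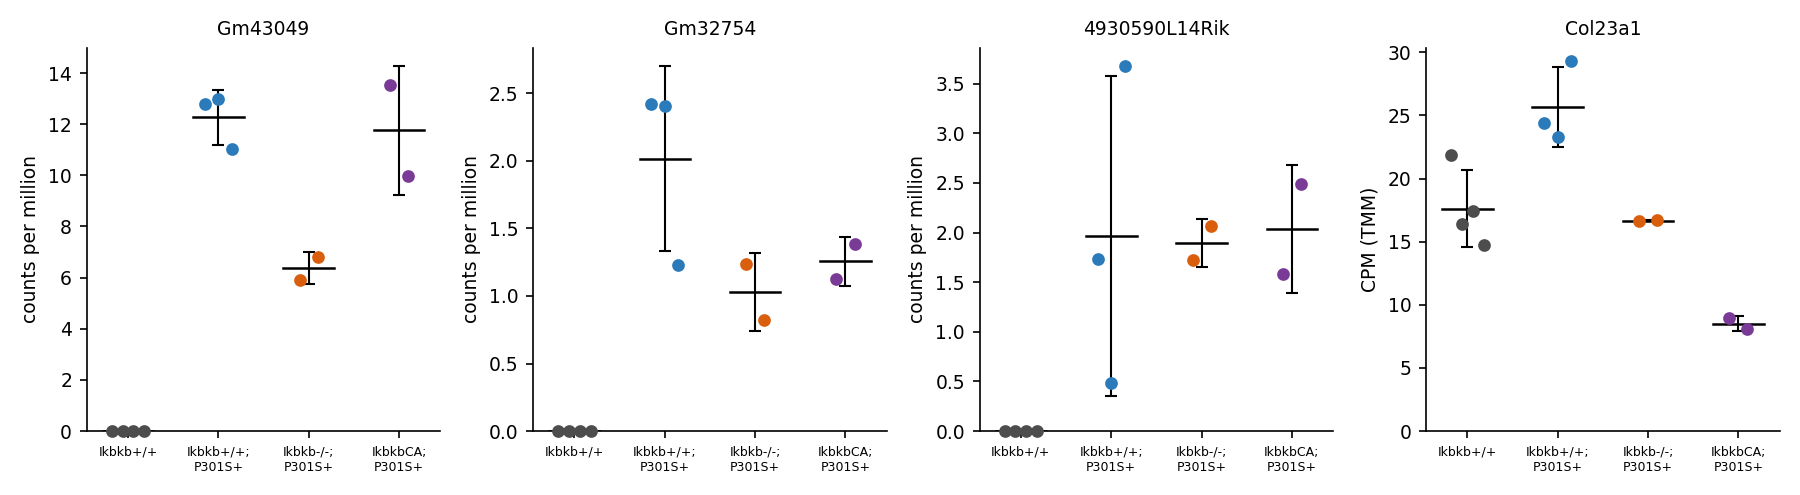
Levels in the Rorb nuclei of each library of Gm43049, Gm32754 and 4930590L14Rik (CPM of total UMIs) and of Col23a1 (TMM-scaled CPM), by genotype, on axes from 0, with 1 point per mouse, a line at the mean and bars of 1 SD. The 3 non-coding RNAs are at 0 in all 4 Ikbkb+/+ mice and above 0 in all 7 P301S mice, and Col23a1 is lowest in the 2 IkbkbCA;P301S+ mice.

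Among the functional lists compared, genes induced by neuronal activity had the median farthest from 0 in P301S mice. These genes are switched on within minutes to hours by synaptic input and calcium, first transcription factors such as Fos, Egr1 and Npas4 and then effectors such as Arc and Bdnf. Of 32 listed, 30 were tested (Egr2 and Fosb fell under the filter), 28 had a log2 fold change below 0 in the 7 P301S mice against the 4 Ikbkb+/+ mice, and the median was -0.44. Over all genes tested, 6321 of 12585 were below 0 and the median was -0.00. None was called (0), and 10 were lower and 0 higher at an unadjusted p under 0.05, which 2.32% and 2.29% of all genes tested were. These genes share inducing signals and were read in the same mice, so that they are not independent of each other. The list was also chosen with earlier results of these data known, and these counts are a description and not a test. The summed level of the 30 genes was 804, 990, 1217 and 1263 CPM in Ikbkb+/+ mice, 841, 751 and 890 in Ikbkb+/+;P301S+ mice, 877 and 783 in Ikbkb-/-;P301S+ mice and 951 and 811 in IkbkbCA;P301S+ mice. The P301S mice lay between 751 and 951, and the Ikbkb+/+ mice overlapped them only through replicate 1. By breeding line the sum was 897 without and 813 with the transgene in the floxed Ikbkb line (n = 2 and 4), and 1240 and 884 in the IkbkbCA line (n = 2 and 3), with list medians of -0.33 and -0.58. In the other excitatory nuclei of the same mice the list median was -0.34 and 30 of 30 were below 0. For Ikbkb+/+;P301S+ mice alone against Ikbkb+/+ mice it was -0.12 there (23 of 30 below 0). Against Ikbkb+/+;P301S+ mice it was -0.39 in Ikbkb-/-;P301S+ mice (24 of 30) and -0.20 in IkbkbCA;P301S+ mice (26 of 30).

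Among the immediate early transcription factors, Npas4, which regulates inhibitory synapse number, read 14.4, 42.3, 17.4 and 16.9 CPM in Ikbkb+/+ mice, 12.9, 16.4 and 14.3 in Ikbkb+/+;P301S+ mice, 7.55 and 10.9 in Ikbkb-/-;P301S+ mice and 8.04 and 6.73 in IkbkbCA;P301S+ mice (log2 fold change of all P301S -1.18 ± 0.27, adjusted p = 0.794). Egr4, a zinc finger factor of the early growth response family, read 4.33 to 6.48 CPM in Ikbkb+/+ mice, 3.58, 6.95 and 5.40 in Ikbkb+/+;P301S+ mice, 1.01 and 1.65 in Ikbkb-/-;P301S+ mice and 2.01 and 1.08 in IkbkbCA;P301S+ mice (-1.24 ± 0.27, adjusted p = 0.784). The lowest Egr4 values were thus those of the 4 mice with Cre, while Ikbkb+/+;P301S+ and Ikbkb+/+ mice had means of 5.31 ± 1.68 and 5.39 ± 0.877. For Npas4 as well the 4 mice with Cre were lowest, at 6.73 to 10.9 CPM, and every mouse without Cre read 12.9 or more. Egr1 stood at 56.4 ± 16.4 CPM in Ikbkb+/+ mice and 32.5 ± 16 in all P301S mice (-0.94 ± 0.23, adjusted p = 0.833), Fos at 9.57 ± 5.67 and 4.18 ± 3.04 (-1.43 ± 0.40, adjusted p = 0.964) and Junb at 21.2 ± 10.9 and 8.71 ± 4.51 (-1.32 ± 0.35, adjusted p = 0.964). Each of these overlapped between the groups, and without Ikbkb+/+ replicate 2 the changes were -0.94 for Fos and -0.69 for Npas4.

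Among regulators and effectors, Dusp6, a phosphatase that inactivates ERK, was the 1 member whose groups did not overlap, against 0.207% of all genes tested in this direction. It read 9.12, 12.4, 13.6 and 16.2 CPM in Ikbkb+/+ mice and 6.81, 8.44 and 8.09, then 5.04 and 5.97, then 7.82 and 6.73 in the P301S groups in the order above. Its log2 fold change of -0.90 ± 0.18 had an unadjusted p of 0.000168 and an adjusted p of 0.481. Btg2, an antiproliferative immediate early gene, averaged 10.2 ± 3.77 and 5.14 ± 1.91 CPM (-1.06 ± 0.26, adjusted p = 0.833). Arc, which governs AMPA receptor endocytosis, averaged 29.8 ± 11.9 and 20.3 ± 9.18 CPM (-0.59 ± 0.32, adjusted p = 0.964), and Bdnf, the neurotrophin, had a log2 fold change of -0.39 ± 0.27 (adjusted p = 0.964). Vgf and Sik1 were the 2 members above 0, at 0.06 ± 0.12 and 0.62 ± 0.38. Egr3 had the lowest p for a difference between the classes of nuclei (-0.63 in the Rorb nuclei, -0.14 in the others, unadjusted p for the difference 0.0009, adjusted p = 0.827). Without the filter on low counts, edgeR called 46 of 22944 genes in this comparison, 8 of them activity-induced and all of these lower (Arc, Btg2, Dusp6, Egr1, Egr4, Fos, Junb and Npas4). For Ikbkb+/+;P301S+ mice alone against Ikbkb+/+ mice, 1 activity-induced gene was called, Junb, which was lower. Against Ikbkb+/+;P301S+ mice, 0 were called in Ikbkb-/-;P301S+ mice and 1 in IkbkbCA;P301S+ mice (Egr1, lower). In that fit the prior degrees of freedom were infinite, against 7.67 with the filter, so that each gene's own spread between mice carried no weight.

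Many activity-induced genes carry the cAMP response element, at which CREB binds, close to their start sites. In RefSeq sequence of the 250 bases before the start site (GRCm38.p6), 25 of the 32 genes were matched by symbol, and the element TGACGTCA was found on either strand in 5 of them (20%), against 1.77% of 27025 genes. Its core TGACG, which the full element contains, was found on either strand in 17 of 25 (68%), against 19.8% of all genes. The stretches for Egr4 (chr6:85513590-85513839), Npas4 (chr19:4989972-4990221) and Btg2 (chr1:134079156-134079405), all on the minus strand, are shown because these genes had low p-values in the list and hold the letters, with matches in capitals:
Egr4: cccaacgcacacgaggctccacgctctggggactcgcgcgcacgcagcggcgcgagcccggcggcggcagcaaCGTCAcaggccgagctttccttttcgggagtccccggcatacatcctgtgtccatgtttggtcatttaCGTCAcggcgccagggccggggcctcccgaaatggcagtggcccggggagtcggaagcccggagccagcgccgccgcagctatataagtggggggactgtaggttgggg
Npas4: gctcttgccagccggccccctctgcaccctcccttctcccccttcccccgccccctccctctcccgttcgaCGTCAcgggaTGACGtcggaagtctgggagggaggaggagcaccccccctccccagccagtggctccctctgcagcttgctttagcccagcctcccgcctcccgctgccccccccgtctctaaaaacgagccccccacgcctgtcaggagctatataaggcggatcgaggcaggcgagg
Btg2: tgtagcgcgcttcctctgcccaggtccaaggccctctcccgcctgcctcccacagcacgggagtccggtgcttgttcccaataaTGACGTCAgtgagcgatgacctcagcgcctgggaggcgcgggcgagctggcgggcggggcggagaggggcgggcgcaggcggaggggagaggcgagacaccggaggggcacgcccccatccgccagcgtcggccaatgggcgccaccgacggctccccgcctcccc

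Btg2 holds the full element in this stretch, whereas Egr4 and Npas4 hold the core only, 2 times each. A match describes the letters in the window and not a bound site.

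**Figure D5:**
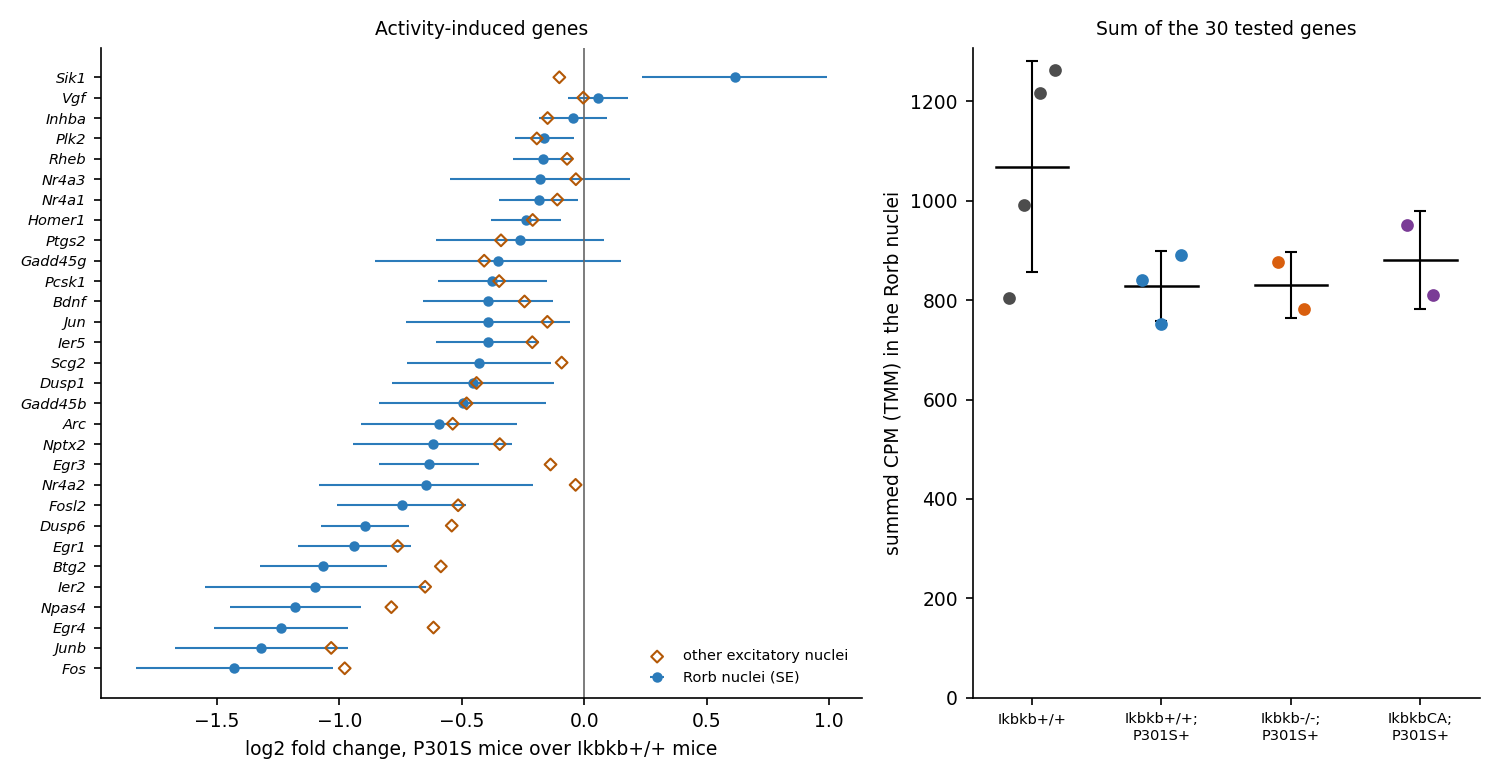
Left, log2 fold change of the 30 tested activity-induced genes in the 7 P301S mice over the 4 Ikbkb+/+ mice, as filled points with SE bars for the Rorb nuclei and open diamonds for the other excitatory nuclei. Right, summed TMM-scaled CPM of these genes in the Rorb nuclei of each library (axis from 0), with group means and bars of 1 SD, where 28 of 30 genes lie left of 0 and the P301S sums lie between 751 and 951.

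The other lists lay near the median of all genes in the P301S mice, and none of their members was called (0). Glutamate receptors and scaffolds had a median log2 fold change of 0.02 (15 of 36 below 0), GABA receptors -0.08 (10 of 15), potassium and HCN channels 0.05 (13 of 36), sodium and calcium channels 0.02 (11 of 23) and synaptic vesicle release genes -0.00 (18 of 36). The tau gene and tau kinases stood at 0.01 (10 of 23), axon guidance and adhesion genes at -0.03 (31 of 54), heat shock and unfolded protein response genes at -0.06 (12 of 21) and nuclear oxidative phosphorylation genes at -0.08 (13 of 25). Cholesterol synthesis genes were below 0 in 17 of 19 but by little (median -0.09, none at an unadjusted p under 0.05), and circadian clock genes in 12 of 17 (-0.06). NF-κB pathway genes had a median of 0.02 (6 of 14 below 0) and interferon response genes of 0.04 (1 of 9 below 0, with 13 of 22 under the filter). Of the genes next to Prnp 4 of 7 were tested (median -0.05), and of 16 neuropeptides 1 was tested. In Ikbkb+/+;P301S+ mice alone the activity-induced genes again had the lowest median of these lists (-0.38, 25 of 30 below 0, 0 called), and the layer 4 markers had a median of -0.05 (5 of 8 below 0).

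Other cell types were read beside these values. Summed oligodendrocyte markers in the Rorb nuclei were 162 to 216 CPM in Ikbkb+/+ mice, 142 to 209 in Ikbkb+/+;P301S+ mice, 178 and 189 in Ikbkb-/-;P301S+ mice and 265 and 284 in IkbkbCA;P301S+ mice, so that the last group lay above all others. Astrocyte markers were 475 to 733, 384 to 635, 496 and 542, and 512 and 614 CPM in the same order. Microglial markers were 27.4 to 50.2, 42.3 to 59.1, 31.5 and 36.0, and 46.5 and 73.1 CPM, and vascular markers, at 0.36 to 15 CPM over all libraries, were too few to compare. Their part in the genotype comparisons was not tested, and the activity-induced list kept its sign when only the 2371 nuclei with few such UMIs were used, a choice made after the data were seen (median -0.58, 24 of 26 below 0).

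Deletion of Ikbkb in microglia asked whether removing this NF-κB input from microglia changed Rorb neurons of P301S mice. EdgeR called 0 of 12585 genes and DESeq2 0, although 768 and 425 had an unadjusted p under 0.05. Activity-induced genes had a median log2 fold change of -0.17 (18 of 30 below 0), layer 4 markers 0.10 (3 of 8), glutamate receptors and scaffolds 0.10 (11 of 36) and layer 2 and 3 markers -0.30 (6 of 6), with 0 called in each. Layer 6 corticothalamic markers had a median of 0.39 (0 of 5 below 0), oligodendrocyte precursor markers 0.51 (0 of 4) and striatal markers 0.42 (0 of 5), again with 0 called. All 6 tested microglial markers were below 0 (median -0.80), among them Cx3cr1, a chemokine receptor gene, at 4.66, 9.43 and 7.71 CPM in Ikbkb+/+;P301S+ mice and 2.77 and 3.91 in Ikbkb-/-;P301S+ mice (-1.07 ± 0.39, adjusted p = 0.804). The IkbkbCA;P301S+ mice, which carry the same Cre allele, read 12.1 and 6.73 CPM. Tshz2 showed one of the larger differences among the layer markers. It read 31.9, 38.7 and 18.9 CPM in Ikbkb+/+;P301S+ mice and 111 and 66.1 in Ikbkb-/-;P301S+ mice, without overlap but with Ikbkb+/+ mice at 50.1, 48.8, 72.0 and 32.8 CPM. Groups of 3 and 2 failed to overlap for 11.2% of all genes in this direction, and the log2 fold change of 1.58 ± 0.35 was not called (adjusted p = 0.804). Tshz2 was called in 1 of 21 alternatives, the fit without the filter on low counts. In the other excitatory nuclei Tshz2 differed by 0.86, and the difference between the classes was not called either (unadjusted p = 0.000463, adjusted p = 1).

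Active IKKβ in microglia asked the reverse question. The called gene was Col23a1, a transmembrane collagen (chromosome 11, 51289920 to 51583918, plus strand), which read 24.4, 23.3 and 29.3 CPM in Ikbkb+/+;P301S+ mice and 8.94 and 8.07 in IkbkbCA;P301S+ mice. It was 21.9, 16.4, 17.4 and 14.8 CPM in Ikbkb+/+ mice and 16.6 and 16.7 in Ikbkb-/-;P301S+ mice, so that the IkbkbCA;P301S+ mice held the lowest values and the Ikbkb+/+;P301S+ mice the highest of the 11. It fell by 1.59 ± 0.21 on the log2 scale (adjusted p = 0.0264). Within the IkbkbCA line alone the means were 16.1 CPM without the transgene (n = 2), 29.3 with it (n = 1) and 8.50 with active IKKβ as well (n = 2). The call was lost with breeding line as a covariate (adjusted p = 0.150), in nuclei with at least 5 Rorb UMIs (-1.07, adjusted p = 0.720), after thinning (-1.68, adjusted p = 0.499) and without any 1 of 7 libraries (adjusted p 0.0543 to 0.603, Ikbkb+/+ replicates 2 and 3 and each Ikbkb+/+;P301S+ and IkbkbCA;P301S+ mouse). The log2 fold change was -1.57 with the covariate and -1.67 to -1.48 without any 1 mouse. Over all alternatives it ran from -2.55, without likely doublets, to -1.07. Without 1 IkbkbCA;P301S+ mouse the other stands alone and is assumed to vary like the other groups. In the other excitatory nuclei Col23a1 was not called, and its difference from the Rorb nuclei was -0.61 (unadjusted p = 0.0255, adjusted p = 0.765).

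Layer markers lay on both sides of 0 with active IKKβ, and none was called (0). Vwc2l, a near-projecting marker, read 39.8, 49.1 and 47.4 CPM in Ikbkb+/+;P301S+ mice and 21.7 and 30.1 in IkbkbCA;P301S+ mice (-0.81 ± 0.19, adjusted p = 0.735), and Otof, a layer 2 and 3 marker, 10.7, 10.9 and 13.5 against 5.59 and 5.92 (-1.03 ± 0.36, adjusted p = 0.788). For Ccbe1 the difference from the other excitatory nuclei had the lowest p of these (-0.97, unadjusted p = 5.58e-05, adjusted p = 0.393). Layer 2 and 3 markers had a median of -0.56 (5 of 6 below 0), near-projecting markers -0.84 (3 of 4), layer 5 intratelencephalic markers 0.31 (1 of 7) and layer 4 markers -0.10 (5 of 8), of which Kcnh5 differed by -0.53 ± 0.18 (adjusted p = 0.788). Groups failed to overlap for 11% of all genes in this direction and for 11.4% in the other. Of 54 axon guidance and adhesion genes 38 were below 0 (median -0.14), 13 did not overlap lower and 4 higher, activity-induced genes had a median of -0.09 (19 of 30 below 0), and circadian clock genes one of 0.14 (3 of 17 below 0). Pde10a, a phosphodiesterase most abundant in striatal neurons, read 2088 and 2437 CPM in IkbkbCA;P301S+ mice and 1202 to 1248 in Ikbkb+/+;P301S+ mice (0.89 ± 0.19, adjusted p = 0.735), with Ikbkb+/+ mice at 1267 to 2398. It was called by edgeR with only the groups compared (adjusted p = 0.0254) and without the filter on low counts. With breeding line as a covariate its log2 fold change was 0.64 and it was not called.

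Whether any genotype difference was particular to the Rorb nuclei was tested directly, as the difference between the Rorb nuclei and the other excitatory nuclei of the same mice over 15184 genes. EdgeR called 0 genes (0.0%) in each of the 4 comparisons, with 705 (4.64%), 711 (4.68%), 653 (4.3%) and 952 (6.27%) genes at an unadjusted p under 0.05. The other excitatory nuclei themselves, with 88423882 UMIs in the Ikbkb+/+ mice against 14857231 in the Rorb nuclei, gave 5 called genes of 16869 for all P301S and for Ikbkb+/+;P301S+ mice (0.0296% each) and 0 for both Cre comparisons. Those 5 were Gm43049, Gm32754, 4930590L14Rik, Alpk1 and Haus7.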

How the data were processed

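Nuclei of frozen cortex from 11 mice, 1 library per mouse, were sorted by flow cytometry for DAPI to remove debris and sequenced with the 10x Genomics 3′ method (v3). The deposited counts are UMI counts per gene and barcode, which the authors made with Cell Ranger (3.1.0) against an mm10 pre-mRNA reference, so that intronic reads were included, and which they analysed with Seurat (3.0). The authors removed doublets with DoubletFinder. No doublet caller was run here, and the files hold no cell type annotation, so that the nuclei were chosen by the UMI limits given above and their number can differ from that of a cluster.

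Counts were summed per mouse over the chosen nuclei and over the other excitatory nuclei. Genes passing edgeR's expression filter (12585 of 31053) were scaled with TMM factors and fitted over all 4 groups with edgeR (4.0.16) glmQLFit and glmQLFTest in R (4.3.3), and a contrast compared 7 P301S mice with 4 Ikbkb+/+ mice as the equal-weight mean of the 3 P301S groups. The difference between the classes of nuclei was fitted with mouse as a block. Shares were compared by exact permutation tests in SciPy (1.17.1). A fold against a group at 0 used 3 counts over the group as a floor, for counting error only. Alternatives were DESeq2 (1.42.0) and its size factors, no filter, breeding line or age as a covariate, the sample title's number as a replicate block, the groups compared alone, at least 5 Rorb UMIs, thinning to 5000 UMIs, removal of each mouse and, chosen after the data were seen, removal of likely doublets (3 or more UMIs of 24 defining markers of other cell types, or the 5% of nuclei with most UMIs in a library). For the gene tests, thinned counts were summed over the Rorb nuclei chosen at full depth, without the 71 under 5000 UMIs. For the shares the rule was applied again after thinning. A planned doublet filter left 1 nucleus and was not used. The script was tested on simulated data with 200 changed genes.

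The nuclei, gene lists and marker lists were chosen with earlier results of these data known. Genes were to be named when called at a mean of 10 CPM or more, when a called member of a list, or when checking the labels. For identity, genes were named at 30 CPM or more, up to 12 per direction. Members of lists that were not called, and genes below these levels, were named after their values were seen, and a few genes are not reported here. Symbols and positions are from GENCODE M21 (GRCm38). Nothing says that the libraries were prepared in separate batches, and p-values measure the spread between mice.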

Additional observations from a re-analysis of the deposited data

Results flagged for a closer look

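Npas4 stood apart within 1 group in the Rorb nuclei, at 42.3 CPM in Ikbkb+/+ replicate 2 against 14.4, 17.4 and 16.9 CPM in the other Ikbkb+/+ mice. The gap exceeded Dixon's 95% limit for 4 samples in 1 of 19 values examined, and chance alone exceeds it in about 5% of groups. Without 1 mouse at a time, the log2 fold change of Npas4 in all P301S mice ran from -1.36 to -0.69.

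In the other excitatory nuclei, which are outside the Rorb comparison, 3 neighbouring non-coding RNAs of chromosome 3 were read with the tau transgene and hardly without it. Gm43049 had 1400 counts over the 7 P301S libraries against 5 over the 4 Ikbkb+/+ libraries, Gm32754 had 148 against 1, and 4930590L14Rik had 227 against 1. Over all nuclei of a library Gm43049 had 502 to 1053 counts with the transgene and 1 to 5 without.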

How the results depend on the processing

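Gm43049 stayed called in all 21 alternatives, and the median of the activity-induced genes stayed below 0 in each (-0.58 to -0.39 for all P301S, -0.53 to -0.23 for Ikbkb+/+;P301S+). Without the filter on low counts, calls numbered 46 for all P301S, 46 for Ikbkb+/+;P301S+, 75 for the knockout and 163 for active IKKβ, in a fit whose infinite prior degrees of freedom gave each gene's own spread no weight. Active IKKβ had 0 calls with breeding line as a covariate, with at least 5 Rorb UMIs and after thinning, 6 with only the groups compared and 2 by DESeq2, and the cause was not tested. Leaving out 1 mouse at a time gave 1 to 2 calls for all P301S (2 without Ikbkb+/+ replicate 4, with Gm765 added), 1 to 4 for Ikbkb+/+;P301S+ (4 without its replicate 3, with the glial genes Gli3 and Ptprz1 among those added), 0 for the knockout and 0 to 1 for active IKKβ. It gave 0 to 6 calls for differences from the other excitatory nuclei, 6 for the knockout without Ikbkb-/-;P301S+ replicate 2 (Bmpr1b, Galnt14, Htr2c, Klhl1, Nrp2 and Plekha7), where 1 mouse is left in the group and is assumed to vary like the others, and 1 for active IKKβ without Ikbkb+/+ replicate 4 (Plcxd3).

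With the number that ends each sample title (1 or 2 within a breeding line and genotype, not the replicate number used here) as a replicate block, calls were 1, 1, 0 and 1 in the same order. The deviations from the group means of mice of different groups with the same title number correlated at -0.18 to 0.20, and at -0.0321 to 0.135 within a breeding line. Not every pair passed 0.1, and no source ties the numbers to a shared litter or day, so they were not treated as pairing the mice.

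Share differences changed sign for active IKKβ after thinning (0.202 points), as a share of all nuclei (0.825) and with at least 5 Rorb UMIs (0.0944), and for the knockout after thinning (-2.17). Without 1 mouse at a time they ran from -1.42 to 0.604 points for all P301S and -1.40 to 0.627 for Ikbkb+/+;P301S+, both above 0 only without Ikbkb+/+ replicate 1. They ran from -1.06 (without Ikbkb-/-;P301S+ replicate 2) to 1.91 for the knockout, and from -1.69 to 0.675 (without IkbkbCA;P301S+ replicate 2) for active IKKβ.

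With 2 mice in each Cre group, of 1 breeding line each, genotype and line were told apart only through the other groups. Of the Ikbkb-/-;P301S+ mice, replicate 1 (8.39 months) was younger than every other mouse. With 191 to 343 nuclei a library, genes under the filter on low counts were not tested.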
